A study of Homo sapiens with 8 samples.

Results

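The genes described here are 10 targets of the transcriptional co-activators YAP and TAZ, out of 17179 gene symbols with ribosome footprints in 293T cells. They are CCN1, CCN2, ANKRD1, AMOTL1, AMOTL2, AJUBA, CRIM1, AXL, NT5E and TGFB2. They were selected on measured values, the rise of their footprints with the hairpin shNBD1 and in replicate 2 of the miRNA inhibitors, so their values in those comparisons are given as a description and carry no test. Ribosome profiling sequences the pieces of mRNA that ribosomes protect from nuclease, and a gene's count reports the footprints on it. Without RNA libraries to set beside them, a difference in mRNA level and a difference in translation cannot be told apart, and in bulk cells neither can fewer cells expressing a gene and less RNA per cell.

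293T is an established line derived from human embryonic kidney, with the large T antigen of SV40. The 8 libraries formed 4 groups of 2. Cells with the non-cleaving short hairpin RNA shNBD1 were set against a hairpin control (titled Scr). The groups of the other arm were cells given miRNA inhibitors and cells given a control for them. The labels do not name the inhibited miRNAs, the time of treatment, or the way hairpins and inhibitors were delivered. All groups grew in the same high-glucose medium with serum and were lysed with cycloheximide. The study asked how both treatments affect translation. Nothing in the labels says that replicates came from separate cultures, so errors and p-values reflect library-to-library variation that could be purely technical.

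YAP and TAZ are held in the cytoplasm when the Hippo kinases LATS1 and LATS2 phosphorylate them. When they are not phosphorylated they enter the nucleus and bind TEAD proteins, which recognise DNA and switch on target genes. The targets include secreted matricellular proteins, regulators of the cytoskeleton and feedback inhibitors of YAP itself. In cultured cells the pathway is known to respond to cell density, attachment, stiffness of the substrate and serum.

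Total counts per library ranged from 11218980 to 19854218, and 13306 genes passed the filter on low counts. All 10 targets passed it. The libraries of the inhibitor arm lay farther apart than those of the hairpin arm, where the replicates' chi-square, divided by its degrees of freedom, was 21.1 with the inhibitors and 14.4 in their control, against 2.78 with shNBD1 and 1.42 in the hairpin control. Markers of other cell types were checked as well. Of 5 fibroblast markers, 3 stayed under 1 CPM (counts scaled to the normalised library size) in every library, among them DCN at no more than 0.164 CPM. The others were present, COL1A1 at 24.2 to 61.0 CPM and LUM at 1.31 to 2.88 CPM. CD68 is a lysosomal protein used as a macrophage marker. It had 26.5 to 27.0 CPM with shNBD1, 38.0 to 38.5 CPM in the hairpin control and 10.6 to 15.1 CPM in the inhibitor arm. The leukocyte markers PTPRC and CD163 were at or below 0.199 CPM, and CD14 reached 1.23 CPM in inhibitor replicate 2. Of 3 endothelial markers, 2 stayed under 1 CPM in every library, and PECAM1 reached 2.27 CPM in inhibitor replicate 2. Of 5 markers listed for 293T cells, 3 had footprints in every library, INA at 43.4 to 70.1 CPM, PAX2 at 1.89 to 3.44 CPM and NEFM at 12 to 28 counts. The other 2, LHX1 and NEFL, were not analysed here.

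The binding sequence of TEAD proteins can be read in the promoters of several of these genes, and 4 of the 6 windows that hold it are shown. They are both windows with repeated matches (CCN2 and ANKRD1) and, as examples of a single match, those of a YAP regulator (AMOTL2) and a ligand (TGFB2). The letters searched were GGAATG and, for the opposite strand, CATTCC, in the 250 bases before each annotated start in RefSeq (GRCh38.p14). They are in capitals, and each sequence runs 5′ to 3′ on the strand of the gene. The windows are CCN2 at chr6:131951373-131951622 (minus strand), ANKRD1 at chr10:90921088-90921337 (minus strand), the second annotated start of AMOTL2 at chr3:134374448-134374697 (minus strand) and TGFB2 at chr1:218345086-218345335 (plus strand).
CCN2: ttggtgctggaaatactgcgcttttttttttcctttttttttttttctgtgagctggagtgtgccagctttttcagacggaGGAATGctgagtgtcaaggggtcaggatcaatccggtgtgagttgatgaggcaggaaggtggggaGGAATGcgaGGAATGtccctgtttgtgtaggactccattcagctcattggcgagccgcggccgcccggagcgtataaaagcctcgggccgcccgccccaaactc
ANKRD1: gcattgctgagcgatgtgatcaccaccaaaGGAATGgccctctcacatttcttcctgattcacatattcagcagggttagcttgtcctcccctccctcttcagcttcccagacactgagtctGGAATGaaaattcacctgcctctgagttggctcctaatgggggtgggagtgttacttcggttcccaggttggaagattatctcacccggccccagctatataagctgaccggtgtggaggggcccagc
AMOTL2: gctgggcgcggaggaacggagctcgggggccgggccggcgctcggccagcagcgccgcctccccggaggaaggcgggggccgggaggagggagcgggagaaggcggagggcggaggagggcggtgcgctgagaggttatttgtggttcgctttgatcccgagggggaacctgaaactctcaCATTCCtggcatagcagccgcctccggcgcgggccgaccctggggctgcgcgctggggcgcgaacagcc
TGFB2: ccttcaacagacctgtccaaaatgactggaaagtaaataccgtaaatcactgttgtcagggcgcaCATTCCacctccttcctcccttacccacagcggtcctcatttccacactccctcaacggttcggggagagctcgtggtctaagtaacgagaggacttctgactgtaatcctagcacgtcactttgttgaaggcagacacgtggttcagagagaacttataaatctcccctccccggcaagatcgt

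The CCN2 window held the letters 3 times, beginning 169, 104 and 95 bases before the start. The ANKRD1 window held them 2 times, beginning 220 and 128 bases before it. TGFB2 and AMOTL2 held them once each, 185 and 69 bases before the start. Of 35116 promoter windows in the RefSeq table, 11.9% held the letters at least 1 time, 0.94% at least 2 times and 0.0826% at least 3 times. The table held 11 windows for 8 of the targets, CCN1 and CRIM1 not being among them, and 6 windows of 6 targets had a match. AMOTL2, AJUBA and AXL matched at 1 of their 2 annotated starts each, the first start of AMOTL2 having no match. The AMOTL1 and NT5E windows had no match. The start that belongs to each deposited transcript was not determined. The AP-1 letters TGANTCA, which read alike on both strands and did not overlap a TEAD match, stood in the ANKRD1 window alone among these 11 and in 6.57% of all windows. A match describes the letters only and shows no binding.

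With shNBD1 the secreted matricellular proteins CCN1 and CCN2 and the nuclear cofactor ANKRD1 had the largest differences. CCN2, which acts in matrix production and wound repair (ENSG00000118523, chromosome 6, 131948176 to 131951372, GRCh38), had 202.0 and 213.4 CPM with shNBD1, against 23.6 and 23.5 CPM in the hairpin control. Both shNBD1 libraries were far above both controls, at 8.81-fold of the control level, a log2 fold change of 3.14 ± 0.66 (SE). CCN1, its relative that binds integrins (ENSG00000142871, chromosome 1, 85580761 to 85583950), had 142.6 and 143.6 CPM with shNBD1 against 45.3 and 42.3 CPM in the control, a difference of 1.71 ± 0.41. The groups did not overlap.

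ANKRD1, an ankyrin-repeat protein of the nucleus and the muscle sarcomere (ENSG00000148677, chromosome 10, 90912096 to 90921087), had the largest fold of the 10 genes. It stood at 66.2 and 64.0 CPM with shNBD1 and at 5.25 and 4.42 CPM in the hairpin control, which is 13.4-fold or 3.74 ± 0.55 on the log2 scale. The control libraries held 79 and 54 counts of it, so the level there rests on few reads. The errors of these 3 genes take their size from all 8 libraries, including the inhibitor arm where the same genes varied most. On the 4 hairpin libraries alone the errors were 0.06 for CCN2, 0.06 for CCN1 and 0.10 for ANKRD1, with log2 fold changes of 3.14, 1.71 and 3.74.

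The regulators of YAP and of cell junctions among the targets differed from each other. AMOTL2, an angiomotin-like protein that binds YAP and holds it out of the nucleus (chromosome 3, 134355345 to 134375417), had 26.2 and 30.3 CPM with shNBD1, against 11.9 and 9.74 CPM in the control, a log2 fold change of 1.38 ± 0.37. AJUBA, a LIM-domain protein that restrains the LATS kinases (chromosome 14, 22971177 to 22982551), had 22.6 and 25.7 CPM with shNBD1 and 10.2 and 11.05 CPM in the control, a difference of 1.18 ± 0.29. In both genes all shNBD1 libraries were above all controls. AMOTL1, the closest relative of AMOTL2 (chromosome 11, 94706460 to 94876748), stood at 63.4 and 65.1 CPM with shNBD1 against 58.8 and 61.3 CPM, a log2 fold change of 0.10 ± 0.07. Its libraries did not overlap, but the gap between the groups was no wider than the gap between its control replicates.

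Among the genes of ligands, receptors and the cell surface, CRIM1 and TGFB2 were higher with shNBD1. CRIM1, a transmembrane protein that binds bone morphogenetic proteins (chromosome 2, 36355778 to 36551135), had 103.7 and 108.8 CPM with shNBD1 and 64.3 and 65.0 CPM in the control, a log2 fold change of 0.72 ± 0.09. TGFB2, a ligand of the TGF-beta family (chromosome 1, 218345336 to 218444619), had 8.53 and 7.62 CPM with shNBD1, against 4.05 and 3.77 CPM, a difference of 1.04 ± 0.22. The groups were apart in both genes.

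AXL, a receptor tyrosine kinase (chromosome 19, 41219223 to 41261766), had 0.711 and 0.953 CPM with shNBD1 and 0.863 and 0.573 CPM in the control. These are 10 and 14 counts with shNBD1 and 13 and 7 counts in the control, the groups overlapped, and the log2 fold change of 0.19 ± 0.52 changed sign without shRNA control replicate 2 (-0.05) and without shNBD1 replicate 2 (-0.04). NT5E, the ectonucleotidase CD73 that makes adenosine (chromosome 6, 85450083 to 85495784), had 2.06 and 1.36 CPM with shNBD1 and 1.06 and 1.64 CPM in the control, from 16 to 29 counts. Its groups overlapped as well (0.36 ± 0.37). The values of AXL and NT5E therefore show no clear rise with shNBD1.

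Across the 10 targets, 8 had both shNBD1 libraries above both controls and none had both below. Of all 13306 genes tested, 34.7% were above and 34.3% below in this way, and since the members were chosen for this rise the count is a description only. The median log2 fold change of the 10 was 1.11, against 0.00 over all genes tested. COL1A1, the fibroblast collagen that made up most of the summed fibroblast markers, stood at 52.1 and 57.2 CPM with shNBD1 against 38.8 and 38.3 CPM in the control. The summed fibroblast markers reached 55.1 and 60.4 CPM with shNBD1 and 41.0 and 40.02 CPM in the control. The summed 293T markers, mostly INA, rose as well, to 62.7 and 73.6 CPM with shNBD1 against 49.2 and 48.9 CPM. INA itself rose by 0.52 ± 0.15 (adjusted p = 0.0324, edgeR). The other detected 293T markers did not rise. NEFM had both shNBD1 libraries below both controls (-0.52 ± 0.35, adjusted p = 0.331, edgeR), from 12 to 25 counts a library. PAX2 was nearly level (-0.05 ± 0.25), with overlapping groups. DCN and COL1A2 were at or below 0.511 CPM in all 8 libraries. COL1A2 did not rise with shNBD1, at 3 and 2 counts against 6 and 3 in the control. PDGFRB did not rise either, at 1 and 3 counts against 5 and 0, with overlapping groups (log2 fold change -0.37). These counts are too few to show a direction. The fibroblast proteoglycan LUM rose to 2.63 and 2.79 CPM with shNBD1, against 1.46 and 1.31 CPM in the control (0.96 ± 0.24, adjusted p = 0.022, edgeR). CD68 fell to 27.0 and 26.5 CPM with shNBD1, against 38.0 and 38.5 CPM (-0.52 ± 0.12, adjusted p = 0.017, edgeR). Their part in the result was not tested.

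**Figure D1:**
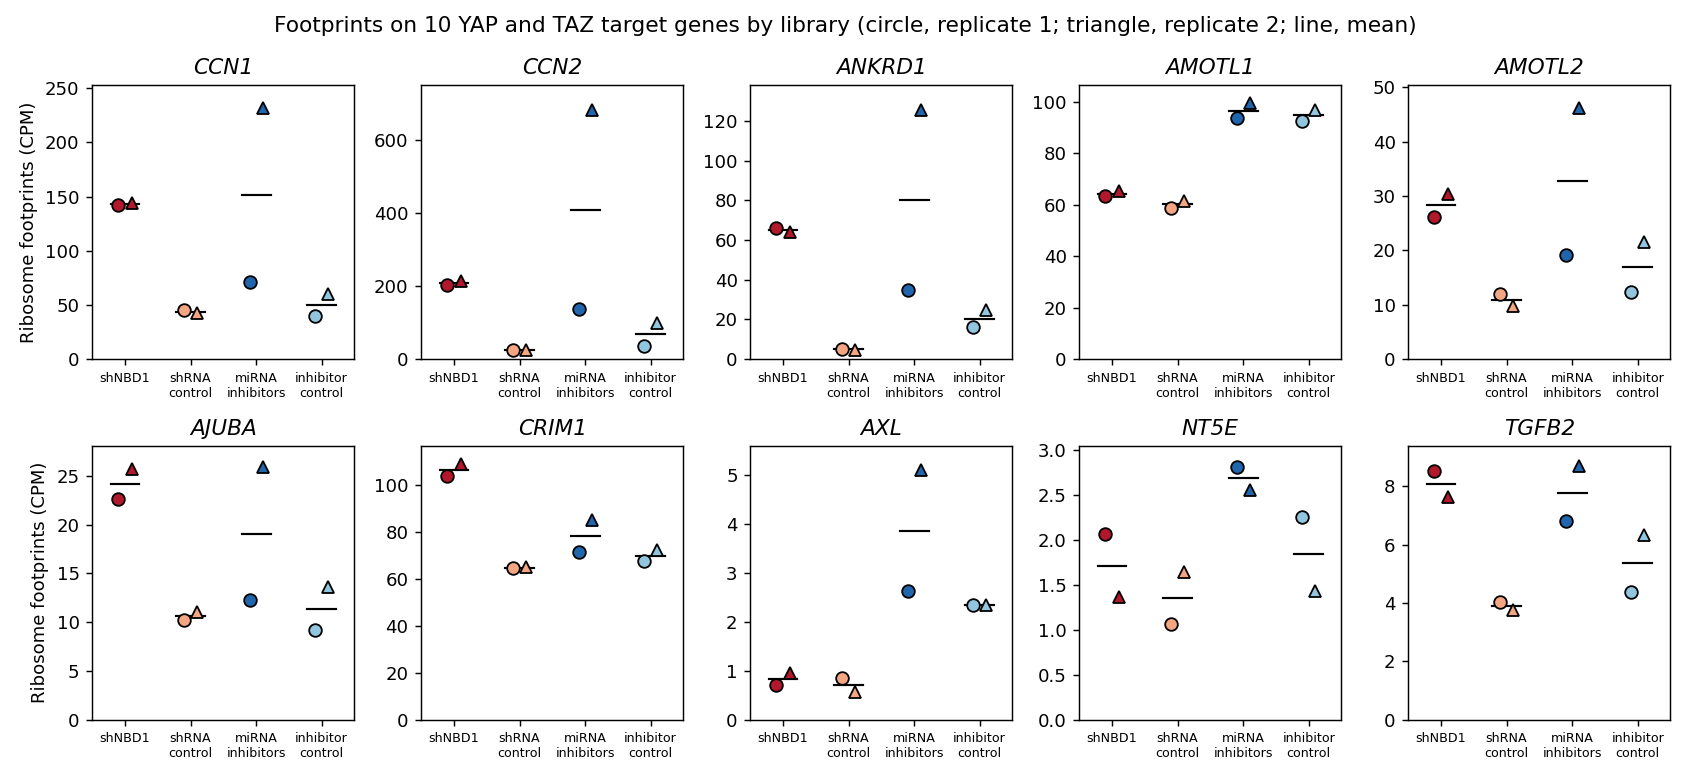
Footprints in CPM on the vertical axis, from 0, for each of the 10 targets in the 8 libraries, with a circle for replicate 1, a triangle for replicate 2 and a line for the mean of each group. The shNBD1 libraries lie close together above the hairpin control in 8 of 10 genes, while replicate 2 of the miRNA inhibitors is the highest library in 8 of 10.

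With the miRNA inhibitors the leading genes were again CCN2, CCN1 and ANKRD1, but the values were spread widely between replicates. CCN2 had 135.8 and 682.3 CPM with the inhibitors, against 37.1 and 100.0 CPM in their control. Both inhibitor libraries were above both controls, and replicate 2 held 5.02 times the level of replicate 1. ANKRD1 had 34.7 and 125.6 CPM with the inhibitors and 15.9996 and 24.7 CPM in the control, and CCN1 had 70.8 and 231.4 CPM with the inhibitors, against 39.5 and 59.9 CPM. The log2 fold changes were 2.57 ± 0.60 for CCN2, 1.95 ± 0.44 for ANKRD1 and 1.59 ± 0.40 for CCN1.

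Single libraries decided the size of these differences. For CCN2, leaving out replicate 1 of the inhibitors gave a log2 fold change of 3.30. Leaving out a library of their control gave 2.01 (replicate 1) or 3.45 (replicate 2). Without inhibitor replicate 2 it was 0.98 ± 0.34 for CCN2, 0.76 ± 0.18 for ANKRD1 and 0.50 ± 0.17 for CCN1. Replicate 1 of the inhibitors alone stood at 1.98 times the control mean for CCN2, 1.71 times for ANKRD1 and 1.42 times for CCN1, and was above both controls in each.

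AMOTL2 had 19.2 and 46.2 CPM with the inhibitors and 12.4 and 21.5 CPM in the control, and AJUBA had 12.3 and 25.9 CPM with the inhibitors, against 9.15 and 13.6 CPM. In these genes replicate 1 of the inhibitors lay between the controls and replicate 2 above them, so the groups overlapped. Each inhibitor library was above the control library of the same replicate number. The log2 fold changes of AMOTL2 and AJUBA were 0.92 ± 0.34 and 0.71 ± 0.29, and 0.17 and 0.10 without inhibitor replicate 2. AMOTL1 had 93.6 and 99.4 CPM with the inhibitors and 92.5 and 96.9 CPM in the control, a difference of 0.03 ± 0.07 that became -0.03 without inhibitor replicate 2. This gene had almost the same level in all 4 libraries of the arm.

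CRIM1 had 71.3 and 84.9 CPM with the inhibitors and 67.3 and 72.3 CPM in the control (0.16 ± 0.09), with overlapping groups. TGFB2 had 6.81 and 8.70 CPM with the inhibitors, against 4.40 and 6.33 CPM in the control (0.51 ± 0.20), and its groups were apart. AXL had 2.63 and 5.11 CPM with the inhibitors and 2.35 in each control library (0.66 ± 0.30). NT5E had 2.81 and 2.55 CPM with the inhibitors and 2.25 and 1.43 CPM in the control (0.55 ± 0.30). Counts of AXL and NT5E in this arm lay between 27 and 54, and NT5E was the only target whose highest level among the 8 libraries was in inhibitor replicate 1.

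In all, 6 of the 10 targets had both inhibitor libraries above both controls, against 20.5% of all genes tested, and none had both below, against 20.3%. Inhibitor replicate 1 was above both controls in 6 and inhibitor replicate 2 in all 10, a count that the choice of the genes fixes. The median log2 fold change was 0.68, against 0.01 over all genes, 0.25 without inhibitor replicate 2 and 1.14 without inhibitor replicate 1. The summed fibroblast markers, mostly COL1A1, were highest in inhibitor replicate 2, at 45.1 and 64.1 CPM with the inhibitors and 27.7 and 46.9 CPM in the control. So were the summed 293T markers within this arm, at 48.1 and 66.7 CPM with the inhibitors and 47.8 and 53.2 CPM in the control. INA made up this rise, at 44.6 and 63.5 CPM with the inhibitors against 43.4 and 48.8 CPM. PAX2 went the other way, at 2.19 and 1.89 CPM against 3.17 and 2.96 CPM (-0.57 ± 0.25, adjusted p = 0.291, edgeR). NEFM had overlapping groups (-0.06 ± 0.32). The fibroblast marker PDGFRB did not rise (-0.55 ± 0.62, groups overlapping), from 2 to 17 counts a library in this arm. LUM had 2.88 and 2.84 CPM with the inhibitors, against 2.20 and 2.50 CPM in the control. Its groups were apart (0.28 ± 0.21, adjusted p = 0.521, edgeR). COL1A2 held 5 and 1 counts against 10 and 2, and DCN 0 and 0 against 0 and 1, too few to show a direction. The part of all these markers in the result was not tested. Whether the hairpin and the inhibitors differ in their effect on these genes was not tested either, and the values of both comparisons are set side by side only.

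**Figure D2:**
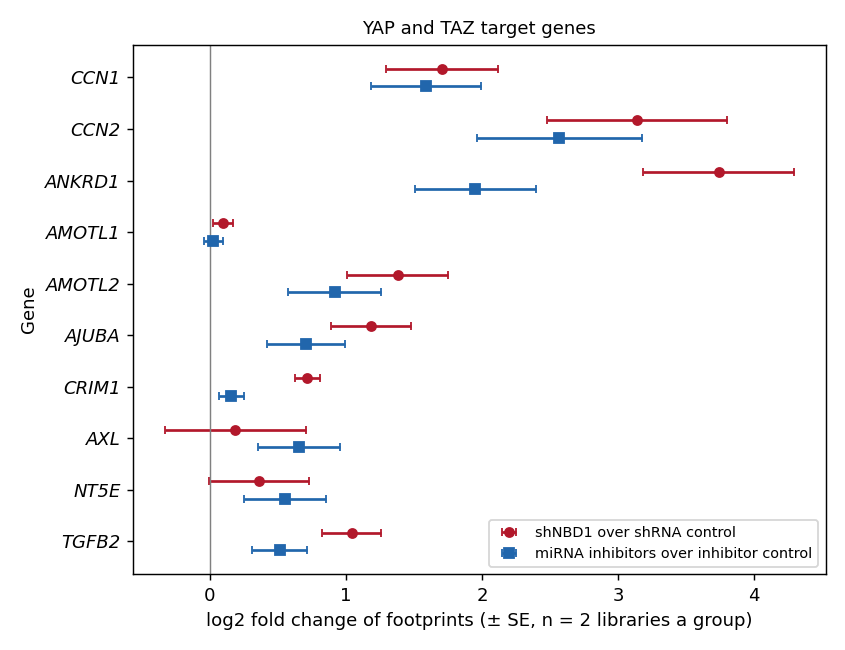
Log2 fold changes with their SE on the horizontal axis for the 10 targets, with circles for shNBD1 over the hairpin control and squares for the miRNA inhibitors over their control (2 libraries a group). ANKRD1 and CCN2 lie farthest to the right with shNBD1 (3.74 and 3.14), and AMOTL1 lies near 0 in both comparisons (0.10 and 0.03).

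The libraries of the inhibitor control also differed from each other on these genes. They are the baseline of the inhibitor contrast that chose the genes, so the ratios are a description and not independent of that choice. Replicate 2 of the control stood at 2.70 times replicate 1 for CCN2, 1.74 times for AMOTL2, 1.54 times for ANKRD1 and 1.52 times for CCN1. These 4 of the 10 targets were at least 1.5-fold higher in replicate 2, against 4.94% of all genes tested. NT5E was the only target at least 1.5-fold lower, at 0.64 times, from 28 and 44 counts, against 2.06% of all genes. AJUBA and TGFB2 stood at 1.48 and 1.44 times. The median ratio of the 10 was 1.46. With 1 library on each side these ratios have no replicate check and no test.

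Between the inhibitor libraries, 6 of the 10 targets were at least 1.5-fold higher in replicate 2, against 5.9% of all genes, and none at least 1.5-fold lower, against 3.37%, although the rise in that library was among the reasons for the choice. CCN2 stood at 5.02 times, ANKRD1 at 3.62 times, CCN1 at 3.27 times, AMOTL2 at 2.41 times, AJUBA at 2.11 times and AXL at 1.94 times. The hairpin arm showed no such split. The shNBD1 replicates stood at ratios between 0.66 and 1.34 and the hairpin control replicates between 0.66 and 1.54, with the extremes in AXL and NT5E. By the same 1.5-fold limit, shNBD1 replicate 2 was higher in 0 targets (3.63% of all genes) and lower in 1 (2.5%), and hairpin control replicate 2 was higher in 1 (2.83%) and lower in 1 (3.32%). In the other 8 genes the ratios were between 0.82 and 1.16 in both hairpin groups.

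**Figure D3:**
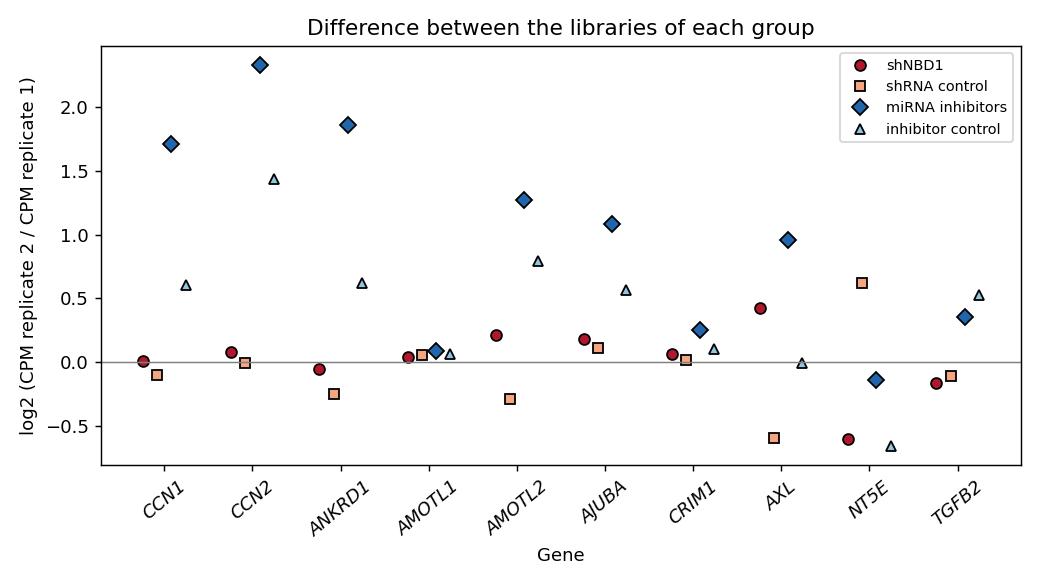
Log2 of the CPM ratio of replicate 2 over replicate 1 on the vertical axis, for each of the 10 targets in each of the 4 groups. The inhibitor libraries and their controls lie above 0 for CCN1, CCN2, ANKRD1, AMOTL2 and AJUBA, while the hairpin libraries lie near 0 for the same genes.

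The baselines of the arms differed too. In the hairpin control ANKRD1 averaged 4.83 ± 0.58 CPM, against 20.3 ± 6.12 CPM in the inhibitor control (SD, n = 2 each), and CCN2 averaged 23.6 ± 0.11 CPM against 68.6 ± 44.5 CPM. AXL averaged 0.718 ± 0.21 CPM in the hairpin control and 2.35 ± 0.0024 CPM in the inhibitor control, and AMOTL1 averaged 60.1 ± 1.75 and 94.7 ± 3.16 CPM. The log2 fold changes of the hairpin control over the inhibitor control were -2.06 ± 0.59 for ANKRD1, -1.54 ± 0.65 for CCN2, -1.67 ± 0.41 for AXL and -0.66 ± 0.07 for AMOTL1. For AMOTL1 this baseline difference was larger than its difference under either treatment.

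In this comparison 7 of the 10 targets had both hairpin controls below both inhibitor controls, against 33.4% of all genes tested, and none had both above, against 33.7%. CCN1, AJUBA and NT5E overlapped. CCN1 averaged 43.8 ± 2.10 CPM in the hairpin control and 49.7 ± 14.4 CPM in the inhibitor control, and its difference of -0.18 became 0.15 without inhibitor control replicate 2. The values are a description, because these libraries are also the baselines of the contrasts that chose the genes. With 1 kind of control in each arm, the kind of control and the arm cannot be told apart. CD68 was also higher in the hairpin control than in the inhibitor control (2.85-fold, adjusted p = 5.7e-05, edgeR), and LUM was lower (-0.75 ± 0.24, adjusted p = 0.0397). CD14, another leukocyte marker, went the other way from CD68 (-3.60 ± 0.90, adjusted p = 0.0144, edgeR), from 1 and 0 counts against 11 and 10. The part of these markers in the values above was not tested.

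The order of levels over the groups was not the same for every target. For CCN2 and ANKRD1 the hairpin control was lowest and the inhibitor control next. The shNBD1 libraries of both genes lay between inhibitor replicate 1 and inhibitor replicate 2, so the ranges of both treated groups were not separate. CRIM1 had its highest level with shNBD1, at 106.3 ± 3.58 CPM, against 78.1 ± 9.61 CPM with the inhibitors, and the remaining groups averaged 64.7 ± 0.46 CPM (hairpin control) and 69.8 ± 3.51 CPM (inhibitor control). AXL and AMOTL1 followed the arm instead: all 4 libraries of the inhibitor arm were above all 4 of the hairpin arm.

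The profiles of the targets over the 8 libraries were compared with the mean of the other 9, after scaling each gene's log2 CPM. Pearson's r was 0.99 for CCN2, 0.98 for ANKRD1, 0.95 for AMOTL2, 0.94 for TGFB2, 0.88 for CCN1 and 0.78 for AJUBA. It was 0.63 for CRIM1, 0.50 for AXL, 0.47 for NT5E and 0.41 for AMOTL1. These describe 8 libraries in 4 groups and the choice of the genes, and the points share library and depth. Among 10901 other genes averaging 50 counts or more, the 8 whose profile was most like the mean of the targets had r between 0.98 and 0.99. They were MYH11, a smooth-muscle myosin heavy chain, SH3BP4, an endocytic adaptor, TMED3, a cargo receptor of the secretory pathway, CPA4, a carboxypeptidase, RARA, a retinoic acid receptor, ARID5A, an RNA-binding and DNA-binding protein, and the ribosomal proteins RPS27A and RPL19.

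The sizes of the differences in these 8 genes were mostly small, since the measure compares shapes. CPA4 was the exception, with 8.04 and 8.57 CPM with shNBD1 against 0.664 and 0.655 CPM in the hairpin control, and 5.69 and 16.4 CPM with the inhibitors against 1.64 and 4.70 CPM in their control. MYH11 had 24.3 and 23.3 CPM with shNBD1 against 13.5 and 13.7 CPM. RPL19 had 3133 and 3143 CPM with shNBD1 against 2419 and 2634 CPM.

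The rest of the pathway was taken from a 22-gene signature of YAP and TAZ activity in human cancers, of which 8 genes are among the targets and 14 are not. Of these 14, 13 were tested and FOXF2 was not analysed here. With shNBD1, 4 of the 13 rose and 1 fell in edgeR's quasi-likelihood test, against 9.18% of all genes higher and 9.15% lower. Their median log2 fold change was 0.44, against 0.00 over all genes, and 10 of the 13 had both shNBD1 libraries above both controls, against 34.7% of all genes. The 14 are what remained of the signature after the targets had been chosen for rising.

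IGFBP3, a carrier of insulin-like growth factors, rose to 8.04 and 7.55 CPM with shNBD1, against 3.19 and 2.29 CPM in the control (1.49 ± 0.25, adjusted p = 0.00308, edgeR). FJX1, a secreted regulator named after a fly gene of tissue growth, rose to 9.39 and 8.98 CPM, against 3.52 and 4.75 CPM (1.16 ± 0.18, adjusted p = 0.00205, edgeR). Both held their call in all 11 alternative settings. F3, the tissue factor that starts coagulation, rose by 0.80 ± 0.17 (adjusted p = 0.0103, edgeR) and ASAP1, a GTPase-activating protein of focal adhesions, by 0.31 ± 0.10 (adjusted p = 0.0459). F3 lost the call without either hairpin control library or without shNBD1 replicate 2, and ASAP1 without any single library of the comparison (adjusted p from 0.153 to 0.264) and in DESeq2 (adjusted p = 0.118).

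The gene that fell was LATS2, a kinase that phosphorylates YAP and TAZ and is also a transcriptional target of YAP. It stood at 2.28 and 2.79 CPM with shNBD1 and at 6.71 and 7.12 CPM in the hairpin control (-1.44 ± 0.19 on the log2 scale, adjusted p = 0.00106, edgeR). Both shNBD1 libraries lay below both controls, and the call held in all 11 alternatives. MYOF, a membrane-repair protein, had 20.8 and 18.7 CPM with shNBD1 against 7.64 and 8.27 CPM, and did not pass over all 8 libraries (1.32 ± 0.47, adjusted p = 0.0776). On the 4 hairpin libraries alone MYOF had an adjusted p of 9.26e-10 (edgeR), in a fit where 5314 of 12688 genes passed. In DESeq2 its adjusted p was 0.194, and MYOF passed in 3 of the 11 alternatives.

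With the miRNA inhibitors 0 of the 13 passed in edgeR's test, where 0.12% of all genes passed in either direction. This count depended on the model: with a replicate block in each arm, 5 of the 13 and 2525 of all genes passed. By unadjusted p under 0.05 there were 5 (MYOF, FJX1, LATS2, F3 and NUAK2). DESeq2 called 0 but gave no adjusted p for MYOF, FJX1, LATS2, F3 and IGFBP3, so its count says nothing about these genes. Over all genes 5 rose (0.0376%) and 11 fell (0.0827%), and 2183 had an unadjusted p under 0.05. MYOF had 18.9 and 47.1 CPM with the inhibitors and 4.55 and 12.7 CPM in the control, a spread like that of CCN2 (1.90 ± 0.43, adjusted p = 0.114). MYOF passed without inhibitor replicate 1 (adjusted p = 0.00306, edgeR) and without inhibitor control replicate 2 (0.0212), and had an adjusted p of 0.427 without inhibitor replicate 2. FJX1 had 3.88 and 4.26 CPM against 2.35 and 2.14 CPM (0.84 ± 0.21, adjusted p = 0.125), and F3 a log2 fold change of 0.47 ± 0.16 (adjusted p = 0.199). LATS2 had 7.94 and 9.74 CPM with the inhibitors and 5.62 and 5.82 CPM in the control (0.61 ± 0.16, adjusted p = 0.136, edgeR). Its log2 fold change lay between 0.46 and 0.75 with single libraries left out, on the opposite side of 0 from that with shNBD1. The difference between its effects was not tested.

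**Figure D4:**
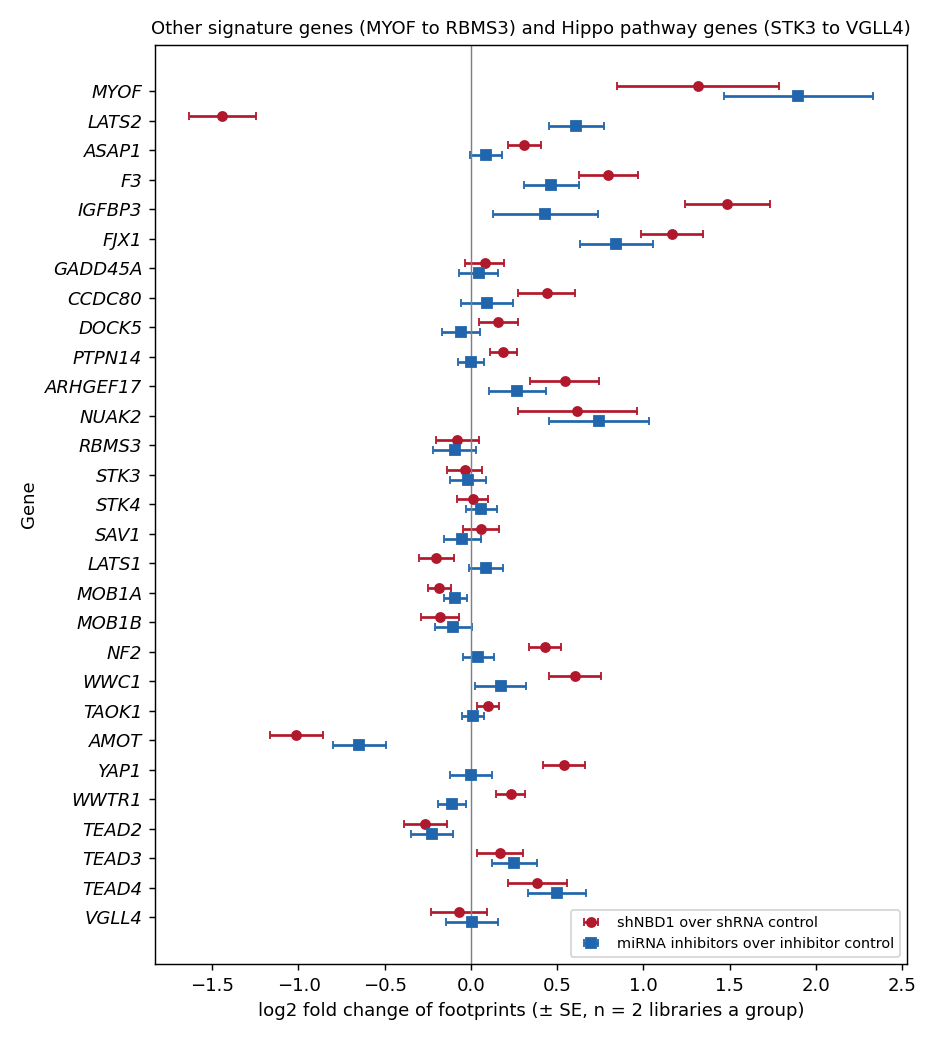
Log2 fold changes with their SE on the horizontal axis for the 13 other signature genes and for the tested Hippo pathway genes (LATS2 is drawn once, among the signature genes), with circles for shNBD1 over the hairpin control and squares for the miRNA inhibitors over their control. IGFBP3, MYOF and FJX1 lie to the right with shNBD1, while LATS2 and AMOT lie to the left (-1.44 and -1.01).

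In a list of 18 Hippo kinases, their regulators, YAP, TAZ and TEAD proteins, 17 genes were tested and TEAD1 was not analysed here. With shNBD1, 3 of the 17 rose and 2 fell, where 18.3% of all genes passed in either direction. LATS2, counted above too, was 1 of those that fell. The other was AMOT, the founding angiomotin that binds YAP. AMOT had 140.9 and 141.9 CPM with shNBD1 and 281.2 and 289.4 CPM in the hairpin control (-1.01 ± 0.15, adjusted p = 0.00196, edgeR), and the call held in all 11 alternatives. The angiomotin family thus held AMOT lower, AMOTL2 higher and AMOTL1 within 0.10 on the log2 scale with shNBD1.

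YAP1 itself rose to 86.8 and 91.3 CPM with shNBD1, against 62.2 and 60.3 CPM in the control (0.54 ± 0.12, adjusted p = 0.0136, edgeR). NF2, an upstream scaffold of the kinases, rose by 0.43 ± 0.09 (adjusted p = 0.01) and WWC1, which activates LATS kinases, by 0.60 ± 0.15 (adjusted p = 0.0195). YAP1 and WWC1 lost the call without any single library of the comparison, and NF2 lost it in 3 of these 4 fits. WWTR1, the gene of TAZ, was looked up after its values were seen and had 39.3 CPM in each shNBD1 library against 33.2 and 33.8 CPM in the control (0.23 ± 0.08, adjusted p = 0.0782).

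With the inhibitors 0 of the 17 passed in edgeR's test, where 0.12% of all genes passed in either direction. By unadjusted p under 0.05 there were 3 (AMOT, LATS2 and TEAD4), where 2183 of all 13306 genes tested had such a p. In DESeq2 1 passed, AMOT, where 118 of all genes did. DESeq2 gave no adjusted p for LATS2 or WWC1, so its count says nothing about these genes. With a replicate block in each arm, 3 of the 17 and 2525 of all genes passed in edgeR. AMOT had 246.3 and 171.9 CPM with the inhibitors, against 371.3 and 285.1 CPM in the control (-0.65 ± 0.15, adjusted p = 0.121 in edgeR and 0.00277 in DESeq2). With single libraries left out, its log2 fold change lay between -0.95 and -0.42. In edgeR the adjusted p was 0.0215 with no filter on low counts and 0.568 on the 4 libraries of this arm alone. TEAD4, a DNA-binding partner of YAP, had a log2 fold change of 0.50 ± 0.17 (adjusted p = 0.195, and 0.0345 without inhibitor control replicate 2) and TEAD3 one of 0.25 ± 0.13 (adjusted p = 0.364). YAP1 stood at 74.6 and 67.8 CPM with the inhibitors and 82.2 and 60.5 CPM in the control, with overlapping groups. For AMOT, inhibitor replicate 2 was the lowest of the 4 libraries and inhibitor control replicate 1 the highest, the reverse of the order seen for CCN2.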

How the data were processed

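Footprint libraries were prepared with Illumina's TruSeq kit for mammalian ribosome profiling, modified, per the labels' protocols. The submitters' processing notes name cutadapt, Bowtie and GRCh38, without versions. How reads were counted, and what was done with reads matching several genes, is not stated there. The authors deposited mapped reads as raw whole-number counts, not normalised. Each row pairs a gene with a transcript, and an unlisted feature was taken as 0. The 18037 features were summed to 17179 symbols. Each target had 1 feature.

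Groups were compared with edgeR 4.0.16 in R 4.3.3 (filterByExpr, minimum count 10 and total 15; TMM; quasi-likelihood fit of 4 groups over 8 libraries, 4 residual degrees of freedom), with Benjamini-Hochberg adjustment over 13306 genes and a threshold of 0.05. CPM use TMM-scaled library sizes. SEs are those implied by the test. The fit was tested on simulated counts. Alternatives were DESeq2 1.42.0, RLE scaling, other filters, fewer libraries and a replicate block. Errors cover the spread of 2 libraries, not read amplification. Replicates of every group differed beyond sampling noise, so none was counted as a duplicate.

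The members and lists were chosen with earlier results of these data known. Named genes were all members, every called gene of both lists, otherwise up to 4 of smallest p, and the 8 of most similar profile. Promoters came from RefSeq (GRCh38.p14).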

Additional observations from a re-analysis of the deposited data

How the results depend on the processing

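The targets' median log2 fold change with shNBD1 lay between 1.11 and 1.12 without any single library, and was 1.29 over the 8 targets with a mean of at least 50 counts, since AXL and NT5E drop out there. Counts of calls depended more on the setting. With shNBD1, single libraries left out gave 532 to 1022 of all genes, 3 to 4 of the other signature genes and 2 to 3 of the Hippo list. The 4 libraries of the comparison alone gave 5314, 10 and 9. With the inhibitors, single libraries left out gave 4 to 930 of all genes (leaving out inhibitor replicate 1 gave 930 and replicate 2 gave 6, while leaving out control replicate 2 gave 639 and replicate 1 gave 4), 0 to 3 signature genes and 0 to 2 Hippo genes. DESeq2 gave 118 of all genes and 1 Hippo gene, no filter gave 179, 1 and 1, and the 4 libraries alone gave 0 of all genes. Between the controls, 3611 genes passed, 2389 with DESeq2 and 1077 to 3197 with single libraries left out. The cause of these changes was not tested.

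The replicate numbers were not taken as pairing the samples in the main fit, since not every pair of groups deviated together. Deviations from the group means correlated at 0.02 between the hairpin groups and 0.42 between the inhibitor groups. Across the arms they correlated at 0.0023 to 0.16, 3 of 6 pairs in all being above 0.1. A block within each arm depends only on the correlation inside that arm, 0.42 for the inhibitors. There the error for CCN2 was 0.60 in the main fit and 0.11 with the block, and for AMOTL2 0.34 and 0.11. With a replicate block in each arm, 5009 genes passed with shNBD1, 2525 with the inhibitors and 6159 between the controls. The block gave 9 and 5 signature genes and 9 and 3 Hippo genes for the same treatments, among them, with the inhibitors, MYOF, LATS2, FJX1, F3, AMOT and TEAD4 (adjusted p from 8.6e-11 to 0.0362, edgeR). The values of AXL and NT5E rest on few reads, 7 to 54 counts a library.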
